A study of Mus musculus with 8 samples.

Results

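The 10 genes described here are the mouse genes of iron handling and the metallothioneins that were named for this account, namely Hamp, Hamp2, Tfrc, Trf, Slc40a1, Fth1, Ftl1, Ftl1-ps1, Mt1 and Mt2. They were matched by gene symbol, all 10 were found among the 22504 genes listed, and all 10 passed the filter on low values, which kept 10244 genes with a level of at least 1 FPKM in at least 4 samples. FPKM is a level scaled for transcript length and library size, so that genes can be compared within a library. Ftl1 and Ftl1-ps1 are near-identical and were read together as well as apart.

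Liver cells keep iron in ferritin, a shell of heavy chains (Fth1) and light chains (Ftl1), take it up from transferrin (Trf) through the transferrin receptor (Tfrc), and release it through ferroportin (Slc40a1). Hepcidin (Hamp), a peptide hormone made by hepatocytes, binds ferroportin and causes its removal from the cell surface. Metallothioneins (Mt1, Mt2) are small cysteine-rich proteins that bind zinc and copper and are induced in liver by metals, glucocorticoids and inflammation.

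The 8 libraries came from Fah-/- mice on a 129S4 background, in which the final step of tyrosine breakdown is missing and which stay healthy on the drug NTBC, given in the drinking water at 7.5 mg/L. Lowering NTBC to 2.5% of that dose gives moderate chronic liver injury (MCLI), and removing it gives severe acute liver injury (SALI). The C 8w group (samples 1a, 2a and 3a, n = 3, tissue labelled liver) had 8 weeks of MCLI. The C 12w group (2e and 3e, n = 2, tissue labelled tumor) had 12 weeks of MCLI. The C 8w + A 4w group (C096, C097 and C098, n = 3, tissue labelled liver) had 8 weeks of MCLI followed by 4 weeks without NTBC. All groups carried the Fah deletion and NTBC restriction, there was no group on full-dose NTBC, and ages were not given. The 3 groups were compared to describe C 8w + A 4w against C 8w, C 12w against C 8w, and these end points against each other. Both end points came later than C 8w, and C 12w alone was labelled tumor. The added severe injury cannot be told apart from later time in the first comparison. Longer injury and tumor tissue cannot be told apart in the second, nor injury and tissue in the third.

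The marker genes were those of liver, although the extraction label named retinas. Of 10 hepatocyte markers, 9 were at 1 FPKM or more in every library, whereas the 8 retina markers summed to between 2.02 and 3.68 FPKM and Gnat1 alone reached 1. Alb, the albumin gene, was listed at 0 in all 5 C 8w and C 12w samples and at 12946 to 16950 FPKM in C 8w + A 4w. It was 1 of 21 genes that were under 1 FPKM in all 5 of the former and over 100 in all 3 of the latter, where they took 8.11% to 8.78% of the summed FPKM. The 3 C 8w + A 4w samples also carried sample codes of another series from those of the other 5, so that any difference in library or file preparation between them and the injury cannot be told apart. Absolute depth was unknown; the commonest ratio to 1a among genes of low values gave relative depths of 0.933 to 1.07 times that of 1a, an estimate that rests on 47 to 289 genes a sample. In whole tissue, fewer cells of a type and less RNA per cell cannot be told apart.

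In the comparison of C 8w + A 4w with C 8w, 6 of the 10 genes passed an adjusted p of 0.05, with 3 higher (Ftl1, Mt1, Mt2) and 3 lower (Hamp2, Trf, Ftl1-ps1). Over all genes tested 39.4% passed, 25.3% higher and 14.1% lower. The 3 and 3 became 1 higher and 3 lower under median-ratio scaling (39.5% of all genes) and without 1a, 2a, 3a or C098 (24.1% to 31.4%). Ftl1 and Ftl1-ps1 share sequence, so that their opposite calls are not separate results. In C 12w against C 8w none of the 10 passed with limma, whereas 19.2% of all genes did, 12.2% higher and 6.98% lower. At an unadjusted p under 0.05 the count was 6 of 10, beside 37.5% of all genes. Of the 10, 7 passed in C 8w + A 4w against C 12w, 4 higher and 3 lower, beside 32.8% of all genes, 17.4% higher and 15.4% lower. The median log2 fold change of the 10 genes was 0.0081, -0.48 and 0.20 in these comparisons, and that of all genes tested was 0.12, 0.12 and 0.0077. The all-gene medians were 0.051, 0.20 and -0.15 under total scaling, and median-ratio scaling, which sets them near 0 by its construction, gave -0.014, -0.011 and -0.0011. Of all calls 64.2%, 63.6% and 53.1% were higher, against 46.6%, 43.9% and 50.1% under that scaling. Each pair of comparisons shares a group of samples, and they are not independent of each other.

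**Figure D1:**
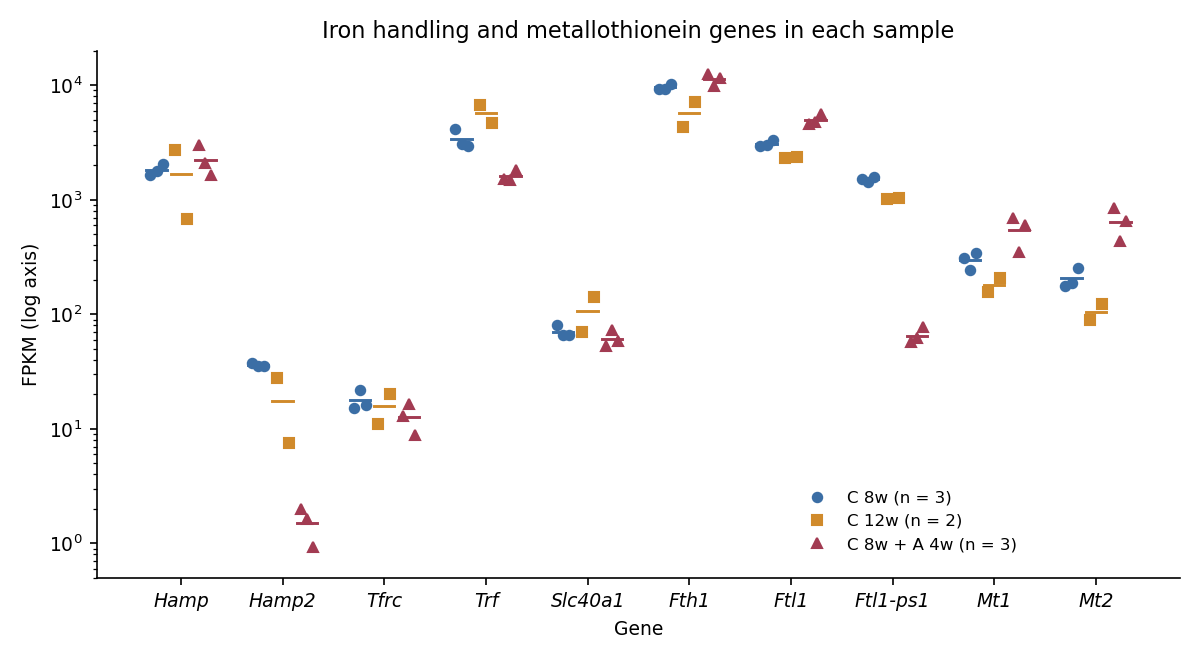
The FPKM of each of the 10 genes in each of the 8 samples on a log axis, with 1 point per sample, colours for the 3 groups and a line at each group's mean. Hamp2 and Ftl1-ps1 are at their lowest in C 8w + A 4w, Mt1 and Mt2 are highest there, and the 2 C 12w samples stand far apart in Hamp and Hamp2.

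Levels spanned from 0.924 FPKM (Hamp2 in C098) to 12620 FPKM (Fth1 in C096). Together the 10 genes took 4.78% to 5.84% of the summed FPKM of a library, most of it ferritin and transferrin. In C 8w the order of mean levels was Fth1, Trf, Ftl1, Hamp, Ftl1-ps1, Mt1, Mt2, Slc40a1, Hamp2 and Tfrc. Of these neighbours, Trf and Ftl1 overlapped between samples, as did Mt1 and Mt2. In C 8w + A 4w the order was Fth1, Ftl1, Hamp, Trf, Mt2, Mt1, Ftl1-ps1, Slc40a1, Tfrc and Hamp2, and Hamp with Trf, Mt2 with Mt1, and Ftl1-ps1 with Slc40a1 overlapped.

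Hepcidin is encoded in mice by a pair of neighbouring genes. Hamp encodes the active hormone, and Hamp2 encodes a related peptide that is not known to act on iron. Their promoters are shown because the genes moved apart in these samples. The sequences are RefSeq's on GRCm38.p6, from 250 bases before to 50 bases after the start, on the minus strand of chromosome 7 (Hamp at chr7:30943980-30944279, Hamp2 at chr7:30924132-30924431). Capitals mark matches on either strand to GGCGCC, the core of a BMP-responsive element, and to TTCNNNGAA, a STAT site.

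Hamp: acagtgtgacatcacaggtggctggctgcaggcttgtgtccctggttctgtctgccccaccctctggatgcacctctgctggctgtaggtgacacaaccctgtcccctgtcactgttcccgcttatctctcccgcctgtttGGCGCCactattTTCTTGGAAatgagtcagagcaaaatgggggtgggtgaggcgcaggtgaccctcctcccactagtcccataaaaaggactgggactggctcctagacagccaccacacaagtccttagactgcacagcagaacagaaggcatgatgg
Hamp2: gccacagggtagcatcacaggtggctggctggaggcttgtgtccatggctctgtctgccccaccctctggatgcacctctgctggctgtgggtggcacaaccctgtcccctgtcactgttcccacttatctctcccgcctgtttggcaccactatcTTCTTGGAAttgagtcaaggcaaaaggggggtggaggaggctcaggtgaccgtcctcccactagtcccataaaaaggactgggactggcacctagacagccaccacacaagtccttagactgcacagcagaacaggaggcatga

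These promoters were identical at 276 of 297 aligned bases. Hamp held 1 match to GGCGCC, at position -109 from the start, and 1 to TTCNNNGAA, at -97, whereas Hamp2 held the second, at -94, and not the first. Among 32544 promoters of the same length, 11.9% held GGCGCC and 8.33% held TTCNNNGAA. Neither held the E-box CACGTG, which 7.17% of promoters did. A match is a run of letters and not a measured site.

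The transcripts can be told apart by short reads over most of their length. Their coding sequences were identical at 93.6% of aligned bases, and 16.6% of the 50-base windows of Hamp occurred elsewhere, all of them in Hamp2. Of the windows of Hamp2, 19.5% occurred elsewhere, with 11.2% in Hamp and 8.24% in Gm44662, which was not listed. The stretch of 60 coding bases with most differences, in exon 3 of each gene from coding base 189 on, held 13 mismatches, in capitals below (GRCm38, minus strand, Hamp at chr7:30942481-30942540 and Hamp2 at chr7:30922512-30922571).

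Hamp: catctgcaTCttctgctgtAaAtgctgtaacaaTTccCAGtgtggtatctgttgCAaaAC
Hamp2: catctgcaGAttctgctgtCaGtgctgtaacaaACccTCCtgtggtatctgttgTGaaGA

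Hamp was at 1640, 1784 and 2048 FPKM in 1a, 2a and 3a of C 8w. It was at 2702 and 681 in 2e and 3e of C 12w, and at 2983, 2075 and 1641 in C096, C097 and C098 of C 8w + A 4w. The C 8w + A 4w samples overlapped those of C 8w, 2e lay above C 8w and inside the range of the added injury group, and 3e lay below all others. For C 8w + A 4w against C 8w the difference was 0.25 on the log2(FPKM + 1) scale (95% interval -0.80 to 1.31, adjusted p = 0.688, limma). It did not pass the test, and the interval leaves room for a change of either sign.

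Within C 12w, Hamp was 3.97-fold higher in 2e than in 3e, a gap that 1.27% of the genes tested matched or exceeded. The value for C 12w against C 8w was -0.42 (95% interval -1.60 to 0.76, adjusted p = 0.580) and turned with the sample left out, to 0.57 without 3e and to -1.41 (adjusted p = 0.0101) without 2e, each with a lone C 12w sample. Against C 12w, C 8w + A 4w differed by 0.67 (adjusted p = 0.349), by -0.32 without 3e and by 1.67 (adjusted p = 0.00372) without 2e. Sample 3e also differed in cell markers, with 6 bile duct markers summing to 339 FPKM, led by Spp1 at 311, against 28.2 in 2e, 9.51 to 15.2 in C 8w and 26.3 to 32.8 in C 8w + A 4w. These markers were thus above the C 8w range in all 5 other samples, and their part in the differences between groups was not tested.

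Hamp2 moved otherwise. It was at 37.3, 35.5 and 35.5 FPKM in C 8w, at 27.8 and 7.48 in 2e and 3e, and at 2.01, 1.62 and 0.924 in C096, C097 and C098. No sample of C 8w + A 4w came near any other sample, and the C 8w mean was 23.8 times that of C 8w + A 4w. The difference was -3.91 on the log2 scale (SE 0.38, adjusted p = 0.000138). Against C 12w it was -2.66 (SE 0.43, adjusted p = 0.00244), and both calls held in all 20 alternatives tried for each. Those alternatives did not include the limit of at most 2% shared windows, which Hamp2 exceeded. The fall in C 8w + A 4w split the samples as the codes and Alb did. The part of file preparation in this fall was not tested.

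In C 12w, Hamp2 was lower than in C 8w in both samples, by -1.25 (SE 0.43, adjusted p = 0.0723), which did not pass. Without 2e the value was -2.13 (adjusted p = 0.000576) and without 3e it was -0.37 (adjusted p = 0.308), each resting on 1 sample of C 12w. The 2 samples again differed, 3.72-fold, with 3e lower.

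As a share of Hamp and Hamp2 summed, Hamp2 was 1.71% to 2.23% in C 8w, 1.02% to 1.09% in C 12w and 0.0563% to 0.0781% in C 8w + A 4w. The share differed little between 2e and 3e, so that the gap between these samples was common to both genes, whereas in C 8w + A 4w Hamp2 parted from Hamp. The sum itself differed by 0.23 for C 8w + A 4w against C 8w (adjusted p = 0.722), close to Hamp alone, since Hamp2 is a small part of it.

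**Figure D2:**
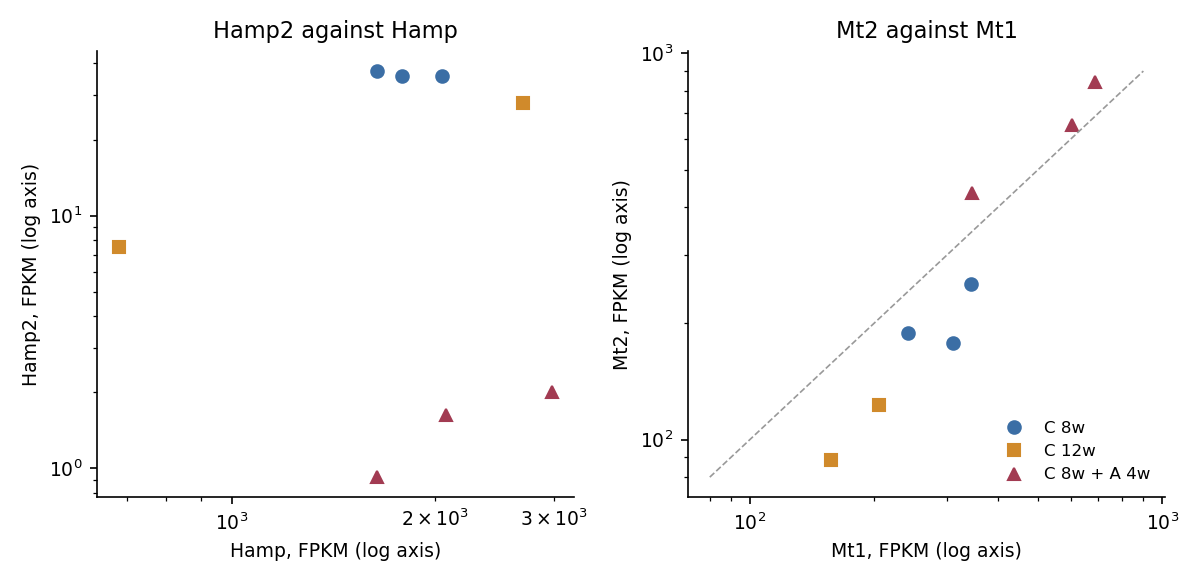
Hamp2 against Hamp (left) and Mt2 against Mt1 (right) in FPKM on log axes, 1 point per sample and a colour for each group, with a dashed line at equal levels on the right. The C 8w + A 4w samples lie below 2.1 FPKM of Hamp2 at Hamp levels of 1641 to 2983 FPKM, and above the line of equal Mt1 and Mt2, where the other 5 lie below it.

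Tfrc, the receptor that brings transferrin-bound iron into cells, was among the lowest of the 10. It was at 15.2, 21.6 and 16.2 FPKM in C 8w, at 11.0 and 20.3 in 2e and 3e, and at 13.0, 16.4 and 8.78 in C096, C097 and C098. The groups overlapped in every comparison. The differences were -0.47 for C 8w + A 4w against C 8w (95% interval -1.09 to 0.14, adjusted p = 0.194), -0.21 for C 12w against C 8w (-0.89 to 0.48, adjusted p = 0.646) and -0.27 for C 8w + A 4w against C 12w (-0.95 to 0.42, adjusted p = 0.530).

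Tfrc, Slc40a1 and the ferritins carry iron-responsive elements, RNA hairpins bound by the iron regulatory proteins when iron is scarce. Bound in the 3′ UTR of Tfrc they protect the transcript, and bound in the 5′ UTR of the ferritins and ferroportin they hold back translation, so that ferritin protein can change with no change of its RNA. The elements were searched on the sense strand of GENCODE M21 transcripts as an unpaired C, a run of 5 bases, the loop CAGTGN and a further run of 5 bases that pairs with the first, G with U allowed. They are shown in 25-base stretches with the loop in capitals.

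Fth1: cctgcttcaaCAGTGCttgaacgga
Ftl1: cttgcttcaaCAGTGTttgaacgga
Ftl1-ps1: cttgcttcaaCAGTGTttgaacgga
Slc40a1: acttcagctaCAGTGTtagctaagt
Tfrc, element 1: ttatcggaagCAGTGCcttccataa
Tfrc, element 2: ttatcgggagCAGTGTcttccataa
Tfrc, element 3: atatcggagaCAGTGAtctccatat
Tfrc, element 4: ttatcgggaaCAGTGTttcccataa

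On GRCm38 the element of Fth1 lies at chr19:9982734-9982758 (plus strand), that of Ftl1 at chr7:45459781-45459805 (minus), that of Ftl1-ps1 at chr13:74406430-74406454 (plus) and that of Slc40a1 at chr1:45925467-45925491 (minus), each in exon 1 and the 5′ UTR. The 4 of Tfrc lie in exon 19 and the 3′ UTR, between chr16:32631221-32631245 and chr16:32631712-32631736 (plus). The stretches of Ftl1 and Ftl1-ps1 are the same letter for letter. Of 21901 protein-coding genes, 1.34% had a transcript with such an element, and Hamp, Hamp2, Trf, Mt1 and Mt2 had none by this pattern.

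Trf, the plasma carrier of iron made by hepatocytes, passed the test in both comparisons with C 8w + A 4w. It was at 4115, 3081 and 2919 FPKM in C 8w, at 6691 and 4719 in 2e and 3e, and at 1506, 1497 and 1803 in C096, C097 and C098. The 3 groups did not overlap, with C 12w highest and C 8w + A 4w lowest. Mean levels were 3372 ± 648 (SD, n = 3), 5705 ± 1395 (SD, n = 2) and 1602 ± 174 (SD, n = 3).

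The fall in C 8w + A 4w was -1.06 against C 8w (SE 0.23, adjusted p = 0.00767) and -1.82 against C 12w (SE 0.26, adjusted p = 0.00132). The first was past the threshold in 19 of 20 alternatives, the exception being a fit of all genes with no filter on low values (adjusted p = 0.105), and the second in all 20. The C 12w value against C 8w was 0.75 (SE 0.26, adjusted p = 0.0713) and missed the threshold, although it was past it in 5 of 22 alternatives, including the one without 3e (1.01, adjusted p = 0.0281), which leaves 2e as the lone sample. Without 2e it was 0.50 (adjusted p = 0.131).

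Of the 50-base windows of Trf, 58.5% also belong to Gm20425, an overlapping gene, which was listed at 16.3% to 25.7% of the FPKM of Trf. Summed with it, the differences were -1.06 (adjusted p = 0.00767), 0.68 (adjusted p = 0.0909) and -1.75 (adjusted p = 0.00159) in the same order as above for C 8w + A 4w against C 8w, C 12w against C 8w and C 8w + A 4w against C 12w. The sum and Trf alone passed in the same comparisons. Of the 10 hepatocyte markers, Ttr (5350 to 6614 FPKM in C 8w and 2579 to 4280 in C 8w + A 4w), Cps1 (458 to 548 and 200 to 281) and Hnf4a (90.4 to 93.2 and 81.2 to 85.3) were also lower in every sample of the latter, Apoa1 and Alb were higher, and the other 5 overlapped. The part of hepatocytes in the Trf values was not tested.

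Slc40a1, the iron exporter, was at 80.3, 65.7 and 65.9 FPKM in C 8w, at 70.7 and 141 in 2e and 3e, and at 52.4, 73.5 and 58.1 in C096, C097 and C098. The value in 3e stood above all others, 2.001 times that in 2e, and the remaining 7 samples lay between 52.4 and 80.3. The differences were -0.21 for C 8w + A 4w against C 8w (95% interval -0.78 to 0.36, adjusted p = 0.530), 0.50 for C 12w against C 8w (-0.13 to 1.14, adjusted p = 0.219) and -0.71 for C 8w + A 4w against C 12w (-1.35 to -0.08, adjusted p = 0.0821). Without 2e the latter comparisons passed, at 1.00 (adjusted p = 0.00932) and -1.21 (adjusted p = 0.00306), and they then rested on 3e as the lone C 12w sample. Without 3e they were 0.0074 (adjusted p = 0.987) and -0.22 (adjusted p = 0.476).

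Macrophages that take up old red cells express Slc40a1 strongly. The 10 macrophage and Kupffer cell markers summed to 204 to 245 FPKM in C 8w, 145 to 193 in C 12w and 149 to 479 in C 8w + A 4w, the highest in C097, which also had the highest Slc40a1 and Tfrc of its group. In 3e, with the highest Slc40a1 of all, the sum was the lowest, at 145. Of 9 red cell markers listed, the sums ran from 36.8 to 52.4, from 12.8 to 27.3 and from 5.69 to 47.6 FPKM in the 3 groups. The part of these cells in the values of Slc40a1 and Tfrc was not tested.

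Fth1, the ferritin heavy chain, which oxidises iron for storage, was the most abundant of the 10 in 7 of 8 samples. It was at 9311, 9311 and 10210 FPKM in C 8w, at 4352 and 7132 in 2e and 3e, and at 12620, 9760 and 11464 in C096, C097 and C098. In 2e Trf was above it. The C 12w samples were below all others, and C 8w overlapped C 8w + A 4w.

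For C 8w + A 4w against C 8w, Fth1 differed by 0.22 (95% interval -0.38 to 0.83, adjusted p = 0.525), and quantile normalization turned its sign (-0.059). For C 12w against C 8w the value was -0.79 (SE 0.30, adjusted p = 0.0908), which missed the threshold but passed without 3e (-1.14, adjusted p = 0.0114), with 2e as the lone sample. Without 2e it was -0.43 (adjusted p = 0.141). For C 8w + A 4w against C 12w it was 1.01 (SE 0.30, adjusted p = 0.0309). That last call was lost in 11 of 22 alternatives, among them each fit without a C 8w or a C 8w + A 4w sample, with adjusted p from 0.0568 to 0.0894.

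The light chain gave another picture when its rows were read apart. Ftl1, which helps the shell to hold its iron core, was at 2923, 3023 and 3338 FPKM in C 8w, at 2292 and 2371 in 2e and 3e, and at 4560, 4730 and 5567 in C096, C097 and C098. The groups did not overlap. Ftl1-ps1 was at 1518, 1421 and 1576 in C 8w, at 1024 and 1043 in 2e and 3e, and at 56.9, 62.0 and 76.8 in C096, C097 and C098.

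By the means, Ftl1-ps1 was thus 23.1 times as high in C 8w as after the added severe injury, at -4.52 (SE 0.15, adjusted p = 1.61e-07), while Ftl1 was 1.6003 times as high there as in C 8w, at 0.67 (SE 0.19, adjusted p = 0.0222). Against C 12w the values were -3.98 (adjusted p = 9.52e-07) and 1.08 (adjusted p = 0.00577). The Ftl1-ps1 calls held in all 20 alternatives each. The Ftl1 call against C 8w was lost in 9 of 20, among them the fits without 1a (adjusted p = 0.0958), 2a (0.0846), 3a (0.0510), C097 (0.0623) and C098 (0.0867), and that against C 12w in 1 of 20.

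The rows share most of their sequence. The transcripts were identical at 906 of 910 aligned bases and the coding sequences at 547 of 549, so that 57.6% of the 50-base windows of Ftl1-ps1 occurred in Ftl1, and 47.3% of those of Ftl1 in Ftl1-ps1. Genes that were not listed shared windows too. Ftl1 shared 22.3% with Gm15590 and 21.5% with Gm10252, and Ftl1-ps1 shared 30.5% with Ftl2-ps and 30.1% with Gm15590. In all, 58.4% of the windows of Ftl1 and 70.5% of those of Ftl1-ps1 occurred elsewhere, which a sum of these rows does not fully cover. The coding stretch of 60 bases that holds both coding mismatches, in capitals, is in exon 4 of Ftl1 (chr7:45458155-45458214, minus strand) and in exon 1 of Ftl1-ps1 (chr13:74407048-74407107, plus strand, GRCm38).

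Ftl1: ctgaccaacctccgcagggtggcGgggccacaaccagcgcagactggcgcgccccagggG
Ftl1-ps1: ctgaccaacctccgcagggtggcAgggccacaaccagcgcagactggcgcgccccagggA

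The rows were therefore also read together. The sum of Ftl1 and Ftl1-ps1 was 4441, 4444 and 4914 FPKM in C 8w, 3316 and 3414 in 2e and 3e, and 4616, 4792 and 5644 in C096, C097 and C098. Samples of C 8w overlapped with those of C 8w + A 4w, and both C 12w samples were below them. For C 8w + A 4w against C 8w the sum differed by 0.12 (95% interval -0.32 to 0.57, adjusted p = 0.646), and median-ratio scaling turned its sign (-0.044).

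For C 12w against C 8w the sum differed by -0.45 (95% interval -0.95 to 0.05, adjusted p = 0.168), and for C 8w + A 4w against C 12w by 0.57 (0.07 to 1.07, adjusted p = 0.0775). None of the 3 passed, whereas 4 of the 6 separate values did. The second passed in 1 of 14 alternatives, without the trend (adjusted p = 0.0414), and the third in 2 of 14, without the trend (0.0103) and under quantile normalization (0.0242). Ftl1-ps1 was 32.0% to 34.2% of the sum in C 8w, 30.5% to 30.9% in C 12w and 1.23% to 1.36% in C 8w + A 4w. The share was nearly constant within each group and split the samples as the codes and Alb did, and which of injury and file preparation moved it cannot be told apart.

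**Figure D3:**
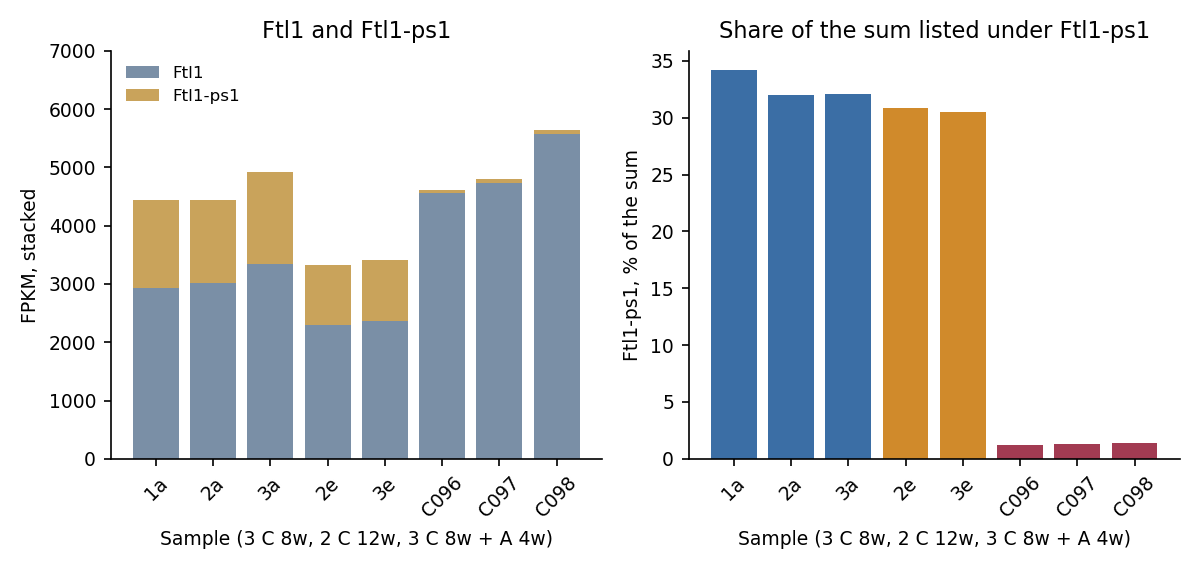
Stacked bars of the FPKM of Ftl1 and Ftl1-ps1 in each sample (left) and the percent of their sum listed under Ftl1-ps1 (right), coloured by group. The bars reach 4441 to 4914 FPKM in C 8w and 4616 to 5644 in C 8w + A 4w, while the share of Ftl1-ps1 goes from over 30% in 5 samples to under 1.4% in 3.

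The ratio of Fth1 to the light chain sum was 2.08 to 2.10 in C 8w and 2.03 to 2.73 in C 8w + A 4w. For 2e it was 1.31 and for 3e 2.09.

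Mt1 and Mt2, neighbours on chromosome 8, both rose in C 8w + A 4w. Their promoters are shown because the metal-responsive element, with the core TGCACNC or TGCGCNC, is read by the zinc-sensing factor MTF1 and is the textbook feature of these genes. RefSeq's windows on GRCm38.p6 are chr8:94178839-94179138 for Mt1 and chr8:94172368-94172667 for Mt2 (plus strand), and capitals mark this core on either strand.

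Mt1: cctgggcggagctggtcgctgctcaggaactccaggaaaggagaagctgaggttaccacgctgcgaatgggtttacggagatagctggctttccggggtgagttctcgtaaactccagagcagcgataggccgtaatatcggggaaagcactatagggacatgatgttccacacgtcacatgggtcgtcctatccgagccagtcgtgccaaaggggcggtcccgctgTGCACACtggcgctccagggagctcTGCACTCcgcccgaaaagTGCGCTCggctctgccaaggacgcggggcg
Mt2: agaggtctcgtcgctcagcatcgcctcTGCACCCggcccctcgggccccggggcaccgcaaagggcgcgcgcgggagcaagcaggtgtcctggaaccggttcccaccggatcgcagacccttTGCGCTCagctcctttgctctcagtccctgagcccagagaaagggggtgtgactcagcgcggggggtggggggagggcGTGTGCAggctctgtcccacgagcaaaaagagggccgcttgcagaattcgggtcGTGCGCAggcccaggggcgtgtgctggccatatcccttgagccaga

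Mt1 held 3 matches, at -23, 3 and 21 from the start, and Mt2 held 4, at -223, -128, -50 and 5. Of 32544 promoters 25.9% held at least 1 match, 1.99% at least 3 and 0.522% at least 4. The Mt2 window also held 1 match to TGACNNNGC, an antioxidant response element, at -79, which 12.4% of promoters held. The Mt1 window held none. Sequence beyond these windows of 300 bases was not searched, so that an element of Mt1 outside its window would be missed. No assay of binding was made here.

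Mt1 was at 311, 242 and 344 FPKM in C 8w, at 157 and 206 in 2e and 3e, and at 688, 347 and 606 in C096, C097 and C098. The groups did not overlap, but C097 and 3a were close. Mean levels were 299 ± 52.2 (SD, n = 3), 181 ± 34.3 (SD, n = 2) and 547 ± 178 (SD, n = 3). Mt1 shared no 50-base window with another gene.

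The rise of Mt1 over C 8w was 0.82 (SE 0.27, adjusted p = 0.0409) and was lost in 9 of 22 alternatives. Among these were median-ratio scaling (0.66, adjusted p = 0.113), total scaling (0.73, adjusted p = 0.0592) and the fits without 1a, 2a, 3a, C096 or C098 (0.63 to 0.93, adjusted p from 0.0615 to 0.136). The rise over C 12w was 1.54 (SE 0.30, adjusted p = 0.00596) and held in all 22. C 12w against C 8w gave -0.72 (SE 0.30, adjusted p = 0.123).

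Mt2 was at 178, 189 and 253 FPKM in C 8w, at 88.7 and 123 in 2e and 3e, and at 842, 436 and 654 in C096, C097 and C098. Each C 8w + A 4w sample was above every C 8w sample, and both C 12w samples were below all of these. The mean was 3.12 times that of C 8w and 6.10 times that of C 12w. The differences were 1.602 (SE 0.26, adjusted p = 0.00203) and 2.56 (SE 0.29, adjusted p = 0.000427), past the threshold in all 21 alternatives each.

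In C 12w, Mt2 differed from C 8w by -0.96 (SE 0.29, adjusted p = 0.0524), the smallest adjusted p of the 10 genes in that comparison, and it passed in 5 of 23 alternatives, among them those without C096 (adjusted p = 0.0401) or C097 (0.0314). Of its 50-base windows 45.8% also occur in Gm45774, a gene not analysed here.

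Mt2 was 0.571 to 0.780 times Mt1 in C 8w, 0.565 to 0.597 times in C 12w and 1.08 to 1.26 times in C 8w + A 4w. The order of the pair was thus reversed in all 3 samples of C 8w + A 4w. Within that group C097 was lowest in both, and it was the sample with the highest macrophage markers. The part of those cells in the metallothionein values was not tested.

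**Figure D4:**
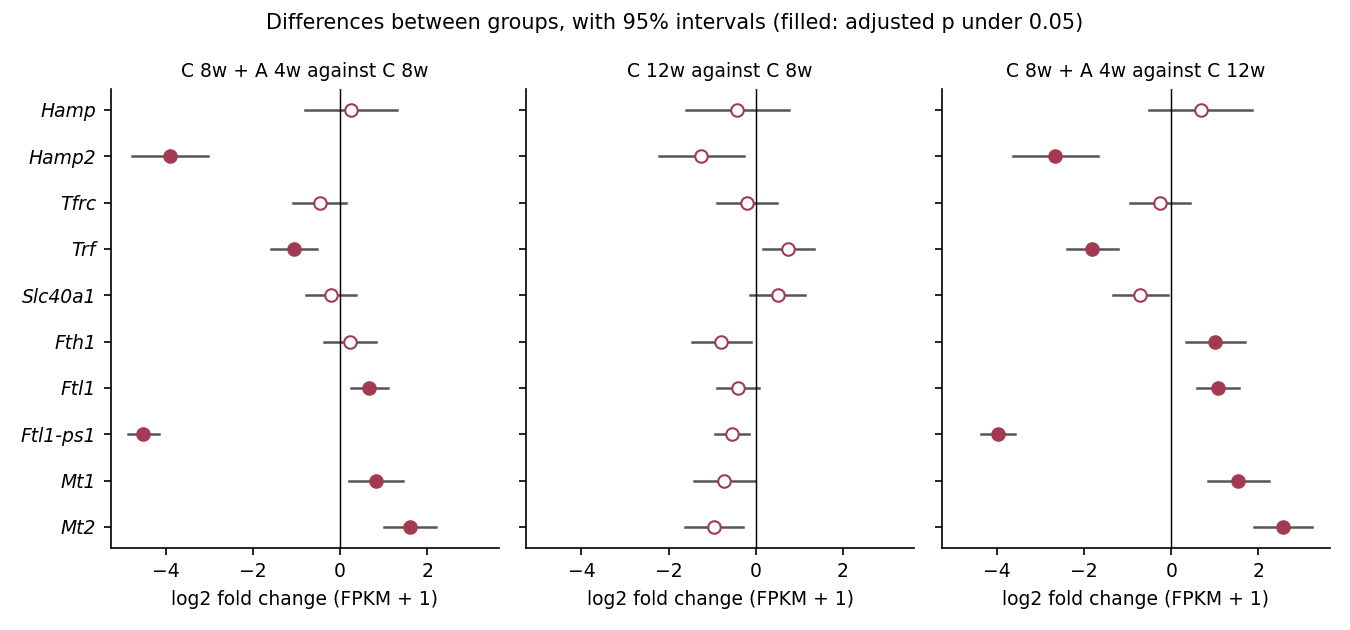
The log2 fold change of FPKM + 1 for each gene in the 3 comparisons, with 95% intervals from limma and filled points at an adjusted p under 0.05. The filled points are Hamp2, Trf, Ftl1-ps1, Ftl1, Mt1 and Mt2 on the left, none in the middle, and these 6 with Fth1 on the right.

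Other genes of iron, heme, zinc and copper handling were taken from 5 lists with 100 genes, of which 91 passed the filter. In C 8w + A 4w against C 8w, 27 were higher and 18 lower, 49.5% beside the 39.4% of all genes, with a median of 0.19. This balance turned under median-ratio scaling (17 higher, 25 lower), quantile normalization (15 and 27), total scaling (15 and 19), a filter at 10 FPKM (11 and 16) and without 1a (12 and 13), and the calls numbered 25, 29, 30 and 29 without 1a, 2a, 3a or C096. In C 12w against C 8w, 7 were higher and 9 lower, 17.6% beside 19.2% of all genes, with a median of 0.10. They were 6 and 16 under median-ratio scaling, 9 and 8 under total scaling and 15 and 10 without 2e, and 10, 9 and 8 in all without 1a, 2a or 3a. In C 8w + A 4w against C 12w, 19 were higher and 15 lower, 37.4% beside 32.8% of all genes, with a median of 0.05, and this balance turned under total scaling (12 and 19) and with only these groups fitted (9 and 11).

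The share of all genes that passed moved with these settings as well, and the counts below are to be read against it. In the first comparison it was 39.5% under median-ratio scaling, 32.0% under total scaling, 40.1% under quantile normalization, 47.3% with the filter at 10 FPKM and 50.6% with only these groups fitted. Without 1a, 2a and 3a it was 24.1%, 28.5% and 29.2%, and without C096, C097 and C098 it was 30.3%, 34.9% and 31.4%. In the second it was 19.4% under median-ratio scaling, 17.9% under total scaling, 6.61%, 9.19% and 7.03% without 1a, 2a and 3a, 36.1% and 14.9% without 2e and 3e, and 13.8% without C098. In the third it was 30.5% under total scaling, 19.5% with only these groups fitted, 41.1% without 2e and 24.3% without C098.

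Of 15 other genes of iron transport and storage, 3 rose and 4 fell after the added severe injury, 46.7% beside 39.4% of all genes, with a median of -0.28. The counts were 1 and 6 under both median-ratio and quantile scaling, 1 and 3 without 1a, 2a, 3a, C096 or C098, and 1 and 7 without C097. Tfr2, a hepatocyte sensor of transferrin, was at 29.7 to 42.7 FPKM in C 8w and at 6.04 to 8.26 in C 8w + A 4w (-2.12, SE 0.26, adjusted p = 0.000478). Its partner Hfe (-0.55, adjusted p = 0.0387), the zinc and iron importer Slc39a14 (-0.57, adjusted p = 0.0103) and the RNA-binding iron chaperone Pcbp2 (-0.65, adjusted p = 0.00252) fell too. Of the windows of Pcbp2, 31.5% occur in other genes. The siderophore binder Lcn2 (1.86, adjusted p = 0.000496), the IRP2 ubiquitin ligase subunit Fbxl5 (0.35, adjusted p = 0.0495) and the lysosomal channel Mcoln1 (0.35, adjusted p = 0.0499) rose.

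Several regulators of the same list did not pass. The iron regulatory proteins Aco1 (-0.37, adjusted p = 0.0572) and Ireb2 (-0.14, adjusted p = 0.461), the importer Slc11a2 (0.25, adjusted p = 0.146), the reductase Steap3 (-0.42, adjusted p = 0.0858) and the ferroxidase Cp (-0.28, adjusted p = 0.282) were among them. Heph was at or under 1.08 FPKM and was not tested. Ncoa4, the ferritin receptor of autophagy, was at 0.226 to 0.446 FPKM in the C 8w and C 12w samples and at 16.7 to 18.3 in C 8w + A 4w, and did not pass the filter since only 3 samples reached 1 FPKM. It split the samples as Alb did.

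In C 12w against C 8w, 2 of the 15 passed, both higher, 13.3% beside 19.2% of all genes, with a median of 0.10, and 1 passed without 1a, 2a, 3a or C098. They were Lcn2 (1.44, adjusted p = 0.00931) and Cp (0.85, adjusted p = 0.0310), which was at 201 and 286 FPKM in C 12w and at 122 to 144 in C 8w. Against C 12w, none of the 15 rose in C 8w + A 4w and 4 fell, 26.7% beside 32.8% of all genes, with a median of -0.17, and Tfr2 (-2.28, adjusted p = 0.000753), Slc39a14 (-0.92, adjusted p = 0.00244) and Pcbp2 (-0.75, adjusted p = 0.00275) had the lowest adjusted p.

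Of 20 genes of the pathways that set hepcidin (BMP and SMAD, interleukin-6 and STAT3, and matriptase-2) and their targets, 7 rose and 2 fell in C 8w + A 4w against C 8w, 45% beside 39.4% of all genes, with a median of 0.32. The counts were 3 and 2 under median-ratio scaling (39.5% of all genes), 1 and 2 under quantile normalization (40.1%) and 0 and 1 without 1a (24.1%), and 3 to 5 passed in all without any other of these 6 samples. Bmp6, the iron-dependent ligand made by liver endothelium, was at 4.32 to 6.21 FPKM in C 8w and at 11.6 to 12.5 in C 8w + A 4w (1.11, SE 0.34, adjusted p = 0.0325). Id1, a target of BMP signalling as Hamp is, rose by 0.85 (adjusted p = 0.0232), while Smad7, another target, did not pass (0.18, adjusted p = 0.380). Smad1 (0.42, adjusted p = 0.0139), the interleukin-6 receptor subunit Il6st (0.45, adjusted p = 0.0194) and the STAT3 target Socs3 (0.87, adjusted p = 0.0228) rose.

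Tmprss6, the protease that lowers hepcidin by cutting hemojuvelin, was at 132 to 165 FPKM in C 8w and at 43.2 to 65.8 in C 8w + A 4w (-1.35, SE 0.20, adjusted p = 0.00122). Il6ra also fell (-0.41, adjusted p = 0.0402). Hemojuvelin itself, listed as Hfe2, did not pass (0.70, adjusted p = 0.187). The 7 liver endothelium markers listed summed to 53.9 to 57.9 FPKM in C 8w and to 26.0 to 44.1 in C 8w + A 4w, where 1 of the 7, Lyve1, was higher in every sample (2.71 to 8.61 against 1.56 to 2.08). The part of these cells in the Bmp6 values was not tested.

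In C 12w, 1 of these 20 passed against C 8w, the BMP ligand Bmp2, which was lower (-0.99, adjusted p = 0.0165). This was 5% beside 19.2% of all genes, with a median of 0.16, and the count was 0 without 2a or 3a (9.19% and 7.03% of all genes), 2 without C098 (13.8%) and 7 without 2e (5 higher, 2 lower, beside 36.1%). The liver endothelium markers summed to 26.9 to 33.4 FPKM in C 12w, below C 8w, and their part in the Bmp2 values was not tested. Against C 12w, Bmp2 (0.82, adjusted p = 0.0176) and Il6st (0.46, adjusted p = 0.0339) were higher in C 8w + A 4w and Tmprss6 (-0.89, adjusted p = 0.0172) was lower, 15% beside 32.8% of all genes, with a median of 0.08. Without 2e 5 were higher and none lower, and with only these groups fitted none passed. Bmp6 was at 16.7 FPKM in 3e and at 4.78 in 2e.

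Of 18 genes of heme handling, 2 rose and 8 fell in C 8w + A 4w against C 8w (55.6% beside 39.4% of all genes), with a median of -0.38. Without 1a or C096 the counts were 2 and 5. Hmox1, which breaks heme down and frees its iron, was at 47.3 to 60.7 FPKM in C 8w, at 100.1 and 133 in C 12w and at 167 to 245 in C 8w + A 4w (1.98, SE 0.19, adjusted p = 0.000116). The heme exporter Flvcr1 rose by 0.94 (adjusted p = 0.000973). The plasma scavengers of heme and hemoglobin fell, Hpx with -1.45 (adjusted p = 0.0177) and Hp with -1.12 (adjusted p = 0.00446).

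The heme synthesis enzymes Urod (-0.99, adjusted p = 0.000288), Ppox (-1.003, adjusted p = 0.00119) and Alad (-1.08, adjusted p = 0.00191) fell in the same comparison. In C 12w against C 8w, 1 of 18 rose, Hmox1 (1.11, adjusted p = 0.0115), and 4 fell, 27.8% beside 19.2% of all genes, with a median of -0.12. The lowest adjusted p values of these were for Alas1, the first enzyme of heme synthesis (-1.30, adjusted p = 0.00184), the biliverdin reductase Blvrb (-1.15, adjusted p = 0.00644) and the heme and folate importer Slc46a1 (-0.77, adjusted p = 0.0112).

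Of the 18 heme genes, 6 rose and 6 fell in C 8w + A 4w against C 12w, 66.7% beside 32.8% of all genes, with a median of -0.08. Alas1 (1.48, adjusted p = 0.000217), Blvrb (1.503, adjusted p = 0.000623) and the macrophage hemoglobin receptor Cd163 (1.75, adjusted p = 0.00346) rose. Ppox (-1.37, adjusted p = 0.000547), Alad (-1.25, adjusted p = 0.00210) and Urod (-0.67, adjusted p = 0.00490) fell.

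Of 14 genes of mitochondrial iron and iron-sulfur clusters, 5 rose and 1 fell in C 8w + A 4w against C 8w, 42.9% beside 39.4% of all genes, with a median of 0.26. Under median-ratio scaling and under quantile normalization 1 rose and 2 fell, and 2 or 3 passed in all without 1a, 2a, 3a, C096 or C098. The cluster assembly gene Isca1 (0.74, adjusted p = 0.00116) and the mitochondrial iron importer Slc25a28 (0.77, adjusted p = 0.0255) were among those that rose, and Abcb8 (-0.79, adjusted p = 0.00176) fell. In C 12w none rose and 3 fell, Glrx5 (-0.997, adjusted p = 0.0169), the scaffold Iscu (-0.66, adjusted p = 0.0311) and Fdx1 (-0.54, adjusted p = 0.0372), 21.4% beside 19.2% of all genes, with a median of -0.19. This count was 0 without 3a (7.03% of all genes), 1 without 1a (6.61%), 2a (9.19%) or C098 (13.8%), and 5 under median-ratio scaling (19.4%). Against C 12w, 6 were higher in C 8w + A 4w and 2 lower, 57.1% beside 32.8% of all genes, with a median of 0.26. The higher ones included Isca1 (1.07, adjusted p = 0.000407), Iscu (1.13, adjusted p = 0.00172) and Glrx5 (1.30, adjusted p = 0.00253), and the lower ones included Abcb8 (-0.85, adjusted p = 0.00273).

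Of 24 genes of zinc and copper handling, 10 rose and 3 fell in C 8w + A 4w against C 8w (54.2% beside 39.4% of all genes), with a median of 0.32. These counts include Mt3, Mt4, Slc39a10 and Slc39a5, which passed the filter on low values through the groups where they were high. The 54.2% was thus partly set by the filter. With a filter at 10 FPKM 2 rose and 2 fell, and the counts were 10 and 7 under quantile normalization, 10 and 5 under median-ratio scaling and 11 and 6 with only these groups fitted or without 2e or 3e. Mtf1, the factor that reads the metal-responsive element, was at 1.89 to 2.37 FPKM in C 8w and 3.58 to 4.33 in C 8w + A 4w (0.60, SE 0.12, adjusted p = 0.00457). Slc30a1, a zinc exporter that MTF1 also induces, rose by 0.73 (adjusted p = 0.00870), and the zinc transporter Slc30a4 by 0.72 (adjusted p = 0.00183). The copper chaperone Ccs (-1.07, adjusted p = 0.00334) and the manganese exporter Slc30a10 (-0.92, adjusted p = 0.0194) fell. The zinc importer Slc39a5 was at 3.85 to 4.61 FPKM in C 8w, 0.419 and 1.21 in 2e and 3e, and 0.267 to 0.746 in C 8w + A 4w (-1.88).

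The other metallothioneins, which are low in liver, were higher in each C 8w + A 4w sample than in any other. Mt3 was at 0.224, 0.528 and 1.74 FPKM in C 8w, at 16.1 and 0.414 in 2e and 3e, and at 37.6, 54.5 and 56.1 in C096, C097 and C098 (4.85). Mt4 was at 0, 0.362 and 0.361 in C 8w, at 2.16 and 0.368 in 2e and 3e, and at 5.18, 9.06 and 5.34 in C096, C097 and C098 (2.58). Mt3 reached 1 FPKM in 5 samples and Mt4 and Slc39a5 in 4, in each case with the 3 samples of the group where it was highest, so that they passed the filter through that group. Slc39a10 reached 1 FPKM only in 2e, 3e, C096 and C097 (1.02, 1.56, 1.37 and 1.21). It was at 0.547 to 0.613 in C 8w, and it too passed the filter through groups where it was higher. These genes are counted among the calls, and their differences are given as a description with no test. In C 12w Mt3 and Mt4 were high in 2e and low in 3e, whereas Mt1 and Mt2 were slightly lower in 2e. Slc39a5 was also lower in 2e than in 3e.

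In C 12w against C 8w, 4 of 24 rose and 1 fell, 20.8% beside 19.2% of all genes, with a median of 0.23. In all 3 passed without 1a, 2a, 3a or C098 (6.61% to 13.8% of all genes), 9 without 2e (36.1%) and 8 without 3e (14.9%). Slc30a4 (0.70, adjusted p = 0.0103), Slc30a7 (0.67, adjusted p = 0.0104) and Slc30a9 (0.46, adjusted p = 0.0338) rose. Slc39a10 (0.53), counted as higher, and Slc39a5 (-1.58), counted as lower, are a description only, since their passing of the filter depended on the group. Against C 12w, 5 were higher in C 8w + A 4w and 2 lower, 29.2% beside 32.8% of all genes, with a median of 0.03. The counts were 2 and 3 under total scaling, 2 and 2 without C098 and 6 and 5 without 2e. The higher ones included Mtf1 (0.51, adjusted p = 0.0169), with Mt4 (1.82) and Mt3 (3.34) as a description, and the lower ones were Slc30a10 (-1.43, adjusted p = 0.00574) and Slc30a9 (-0.57, adjusted p = 0.00839).

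**Figure D5:**
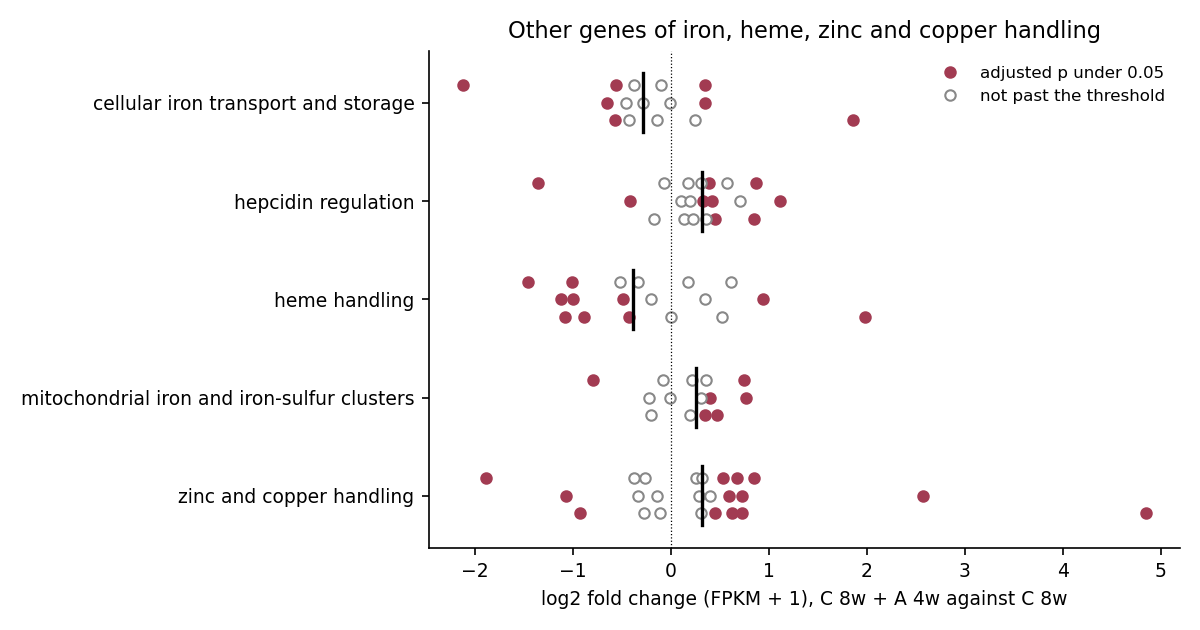
The log2 fold change of FPKM + 1 of 91 other genes in 5 lists for C 8w + A 4w against C 8w, 1 point per gene, filled at an adjusted p under 0.05, with a bar at each list's median. The medians are -0.28, 0.32, -0.38, 0.26 and 0.32 from top to bottom, and the highest point is Mt3 (4.85) and the lowest Tfr2 (-2.12).

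The genes with the pattern most like that of Hamp over the 8 samples, by Pearson's r of log2(FPKM + 1) among 10234 other genes, were Ctsz (0.978), Evc2 (0.970) and Pi4k2a (0.952). Ctsz was at 168 and 100.4 FPKM in 2e and 3e and at 138 to 162 elsewhere, and like Hamp it was highest or near highest in 2e and C096 and lowest in 3e. Those most like Mt1 were Mapk13 (0.983), Dand5 (0.977) and Tcta (0.965). These values were picked from many genes and share the same libraries, and they are a description of 8 samples only.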

How the data were processed

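RNA of the 8 samples was sequenced from TruSeq libraries. The deposited table holds FPKM values per gene that the authors computed, with no counts. The submitters' processing notes name Bowtie 0.12.2 and the build mm8, with no role or order. The program that quantified the genes and its annotation are not given in the sources used here. Columns of other samples: 0.

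Values were analysed as log2(FPKM + 1), which understates changes of low genes, with limma 3.58.1 in R 4.3.3. All 8 samples and 3 groups entered 1 fit with a trend on the mean. Genes with at least 1 FPKM in at least 4 samples were tested, two-sided, with Benjamini-Hochberg adjustment over 10244 genes and a threshold of 0.05. The fit was tested on simulated data. The study speaks of the samples as individual animals.

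The 10 genes, the lists and the rule for naming list genes (for each list, comparison and direction, the 3 with the lowest adjusted p, and 21 genes fixed by name) were chosen with earlier results of these data known. Some genes that the rule names are not reported here. Mt3 and Mt4 values by sample and the split of Ncoa4 were described after they were seen. Shared sequence was measured as the share of a gene's 50-base windows found in another gene of GENCODE M21. Sequences came from RefSeq and GENCODE on GRCm38 and were aligned with Biopython, and no coordinates of mm8 were used. Replicate numbers 2 and 3 in C 8w and C 12w were not shown to pair samples. Alternatives covered the filter, the pseudocount, scaling, the trend, the groups in the fit, shared sequence and each sample left out.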

Additional observations from a re-analysis of the deposited data

How the results depend on the processing

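Of 647 values of single genes under alternatives, 591 kept direction and side of the threshold, 31 lost a call, 20 gained one and 5 changed sign.
For C 8w + A 4w against C 8w, 6 of 10 genes were called, 3 with no filter on low values (24.3% of all genes) and 1 of 4 among genes with at most 2% shared windows (34.7%). For C 8w + A 4w against C 12w, the last setting left 2 of 4 (28.0%). For C 12w against C 8w, 0 were called, but 2 with a filter at 10 FPKM, 2 under median-ratio scaling, 1 under total scaling, 1 under quantile normalization, 4 without the trend, 1 with only these groups fitted, and 0 to 3 with a sample left out (3 without 2e, where 36.1% of all genes passed, 2 without 3e, where 14.9% did, and 1 without C096 or C097, where 18.8% did). The cause of these changes was not tested, apart from fewer genes under the sequence limit.
Signs turned for Fth1 under quantile normalization (-0.059) and for the sum of Ftl1 and Ftl1-ps1 under median-ratio scaling (-0.044), both in C 8w + A 4w against C 8w. With a sample left out, Hamp ran from -1.41 to 0.57 and Tfrc from -0.62 to 0.21 in C 12w against C 8w, and Hamp from -0.32 to 1.67 and Tfrc from -0.68 to 0.15 in C 8w + A 4w against C 12w. Each turn came from leaving out 2e or 3e.
Scaling moved the median of all genes from 0.12 to -0.014 (C 8w + A 4w against C 8w) and from 0.12 to -0.011 (C 12w against C 8w) under the median ratio. The share of calls that were higher went from 64.2% to 46.6%, 53.5% and 47.1% under median-ratio, total and quantile scaling in the first comparison, from 63.6% to 43.9%, 72.2% and 46.9% in the second, and from 53.1% to 50.1%, 36.1% and 49.9% in C 8w + A 4w against C 12w. 
A replicate block on numbers 2 and 3 in C 12w against C 8w called 0 of the 10 genes, 1 of the 91 list genes and 252 of all genes, and the crossed block, chosen after seeing the data, 0, 0 and 16. Differences between samples 2 and 3 correlated at -0.19 across genes between the groups. Summing Trf with Gm20425 and Hamp with Hamp2 was also chosen after seeing the data.
C 12w has 2 samples, depth is unknown, and counting error could not be given.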
